A study of Homo sapiens with 6 samples.

Results

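The protein-coding genes of chromosome 20 were followed in their order along the chromosome in NB4 cells, an established human cell line from acute promyelocytic leukaemia, in which granulocyte precursors are arrested at the promyelocyte stage. Members were chosen by position and level, and the stretches and departing genes by the ratio of overexpressing to control libraries. A gene was included if its row lay on chromosome 20 (GRCh38 build, positions from the GENCODE annotation) and its mean level over the 6 libraries was at least 5 CPM (a gene's count scaled to a library total of 1000000 counts). Of 543 coding genes annotated on the chromosome 540 had a row among the 61806 rows of the count table, and 286 of them reached that level. For each gene a log2 ratio was taken between the mean CPM of the overexpressing libraries and the mean CPM of the controls, with 0.5 CPM added to both, and the stretches described below were located from these ratios. Calls and fold changes come from the same contrast, so they describe the members and do not test the stretches.

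The study set NB4 cells that stably overexpress CD69 after lentiviral transduction (3 libraries) against NB4 control cells (3 libraries), whose genotype the sample labels give as Wild-type and whose cells the series' design text calls vector control. CD69, a C-type lectin receptor, is one of the earliest surface proteins that leukocytes show once activated. Both groups grew without a drug and were taken in log phase. Nothing in the sources used here says whether each group is a clone or a pool, or that its libraries came from separate transductions, so the spread between libraries may be technical. Total counts were between 51543550 and 57463020 per library. CD69 itself measured 80.8, 82.6 and 68.8 CPM in the control libraries against 99.6, 99.3 and 94.8 CPM under overexpression, a log2 fold change of 0.33 (SE 0.07) that was called higher, a call lost without overexpressing replicate 2. Of the 10 listed markers of granulocyte precursors 9 had a mean of at least 1 CPM, and their summed level was 1675 to 1972.5 CPM in the controls and 2588.7 to 2996.4 CPM in the overexpressing libraries. Single markers differed in direction: the granule proteases ELANE (101 to 128 against 393 to 476 CPM) and PRTN3 (112 to 137 against 604 to 694 CPM) were at higher levels under overexpression, and MS4A3 (169 to 177 against 102 to 110.1 CPM) and the transcription factor SPI1 (126 to 150.1 against 97.6 to 115 CPM) at lower ones. MPO, the myeloperoxidase of these cells, had 0.905 to 1.45 CPM in the controls and 0.525 to 1.03 CPM in the overexpressing libraries. B cell markers, 7 of 10 with a mean of at least 1 CPM, summed to 23.9 to 36.0 CPM in the controls and 34.4 CPM in overexpressing replicate 1, against 219 and 229 CPM in overexpressing replicates 2 and 3. T and NK cell markers summed to 55.7 to 72.7 and 101 to 119 CPM, almost all of it NKG7, with CD3E and CD3G at 0 throughout.

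The proximal long arm of chromosome 20 carries a dense group of widely expressed genes that includes the survival gene BCL2L1, the chromatin regulator ASXL1 and the DNA methyltransferase DNMT3B. Part of the long arm is often deleted in myeloid disease, and a block of the proximal long arm with ID1, BCL2L1 and TPX2 is often gained in cultured human pluripotent stem cells. Only RNA was measured here, and in bulk RNA fewer cells of a type and less RNA per cell cannot be told apart.

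The genes fell into 3 stretches: a raised one from C20orf96 to ZNF337, a short lowered one from HM13 to CDK5RAP1, and a raised one from CBFA2T2 to the distal end. The edge that lies between closely spaced genes is the one after CDK5RAP1, and the start windows of the genes on both sides of it are printed here, with those of the genes farthest above and below their neighbours. Each is the RefSeq window (GRCh38.p14) from 250 bases before to 50 bases after the gene's start, read 5′ to 3′ on the gene's strand, and capitals mark matches on either strand to 4 motifs. These are the GC box GGGCGG, the CCAAT box, the TATA box in the form TATAAA, and the CpG-rich word CGCG. None of their matches overlap in these 4 windows, although the GC box and the CpG-rich word can share letters.
CDK5RAP1, chr20:33401520-33401819, minus strand: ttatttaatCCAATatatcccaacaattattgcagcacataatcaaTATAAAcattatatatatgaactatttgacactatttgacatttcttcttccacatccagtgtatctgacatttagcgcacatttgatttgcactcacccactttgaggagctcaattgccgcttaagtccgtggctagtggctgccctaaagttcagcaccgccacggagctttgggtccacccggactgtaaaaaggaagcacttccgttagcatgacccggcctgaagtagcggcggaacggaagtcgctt
CBFA2T2, chr20:33562092-33562391, plus strand: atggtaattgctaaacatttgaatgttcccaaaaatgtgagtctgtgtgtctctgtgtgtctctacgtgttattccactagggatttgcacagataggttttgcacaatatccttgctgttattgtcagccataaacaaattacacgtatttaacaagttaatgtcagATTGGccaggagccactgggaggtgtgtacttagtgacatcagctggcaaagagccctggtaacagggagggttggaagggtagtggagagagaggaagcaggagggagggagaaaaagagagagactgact
LAMP5, chr20:9514340-9514639, plus strand: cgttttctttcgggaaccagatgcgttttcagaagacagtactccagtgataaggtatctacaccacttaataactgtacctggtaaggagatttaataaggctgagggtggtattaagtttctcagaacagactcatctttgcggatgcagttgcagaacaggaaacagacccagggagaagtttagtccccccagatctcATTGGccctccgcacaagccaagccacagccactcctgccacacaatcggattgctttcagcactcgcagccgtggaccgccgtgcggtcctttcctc
SIRPB2, chr20:1491371-1491670, minus strand: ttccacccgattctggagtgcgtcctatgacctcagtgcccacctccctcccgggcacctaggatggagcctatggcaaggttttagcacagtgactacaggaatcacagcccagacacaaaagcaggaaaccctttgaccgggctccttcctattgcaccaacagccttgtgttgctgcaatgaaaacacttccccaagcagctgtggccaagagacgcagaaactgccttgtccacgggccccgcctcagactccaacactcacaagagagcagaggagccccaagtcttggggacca

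The CDK5RAP1 window held 12 CpG dinucleotides, 1 CCAAT box and 1 TATA box. The CBFA2T2 window held 2 CpG and 1 CCAAT, and it lies inside the gene as GENCODE draws it, because RefSeq's start is downstream of the GENCODE start at 33490075. LAMP5 had 11 CpG and 1 CCAAT, and SIRPB2 had 7 CpG and none of the motifs. All 4 windows were below the median of 14 CpG over the 27305 windows of the table and below the median of 31 over the 232 members with a window. The CpG-rich word occurred in 49.6% of all windows and in 86.2% of the members' windows, and the GC box in 44.6% and 70.3%. The CCAAT box was in 35.7% and 31.0%, and the TATA box in 12% and 5.17%. All windows were taken here regardless of level. Coding genes of at least 5 mean CPM on the other chromosomes had 8197 windows, with a median of 27 CpG. Of these 82.1% held the CpG-rich word, 72.0% the GC box, 37.1% the CCAAT box and 4.98% the TATA box, close to the members. In the stretch from HM13 to CDK5RAP1 4 of 13 windows held the TATA box, against 1 of 77 in the stretch before it and 7 of 142 in the stretch after it. In the same order the GC box was in 61.5%, 70.1% and 71.1% of windows. The CCAAT box was in 38.5%, 36.4% and 27.5%, and the CpG-rich word in 69.2%, 80.5% and 90.8%. These differences rest on few windows in the lowered stretch and were not tested. These matches describe the letters of the windows and show no use of a site.

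Over all 286 members the median log2 ratio was 0.41, a 1.33-fold higher level in the overexpressing cells. It was 0.42, 0.41 and 0.40 in overexpressing replicates 1, 2 and 3 taken singly against the control mean, and -0.01 over the 9947 comparable genes of the other chromosomes. The ratio was above 0 for 243 members and below 0 for 43. By edgeR's quasi-likelihood test with Benjamini-Hochberg adjustment over all 19485 tested genes 163 members were called higher, 27 lower and 96 neither. Among the comparable genes of the other chromosomes 16.8% were called higher and 15.8% lower, and over all tested genes 14.2% and 9.94%. All 3 overexpressing libraries lay above all 3 controls for 200 members and below them for 29, where the share on the other chromosomes was 25.8% above and 25.2% below. Counts are uncertain for the 52 members that share exons with a gene on their strand, AHCY, BPI, COMMD7, LAMA5, POFUT1, SIRPB1, SNRPB and TP53RK among those named here. The same holds for the 80 whose exons lie over a gene on the other strand, such as ADA, GNAS, NOL4L, PDRG1, RNF24, RPN2, SAMHD1, SIRPA, TGM2 and ZNF337, since the strand setting of the counting is not given in the sources used here. Just under the level of 5 CPM lay PKIG (4.91 CPM, ratio 0.96) and SLA2 (4.18 CPM, ratio 0.21). Just over it lay SNAI1 (5.08 CPM, ratio 0.12), SHLD1 (5.17 CPM, ratio 0.75) and EEF1A2 (5.20 CPM, ratio -1.17).

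**Figure D1:**
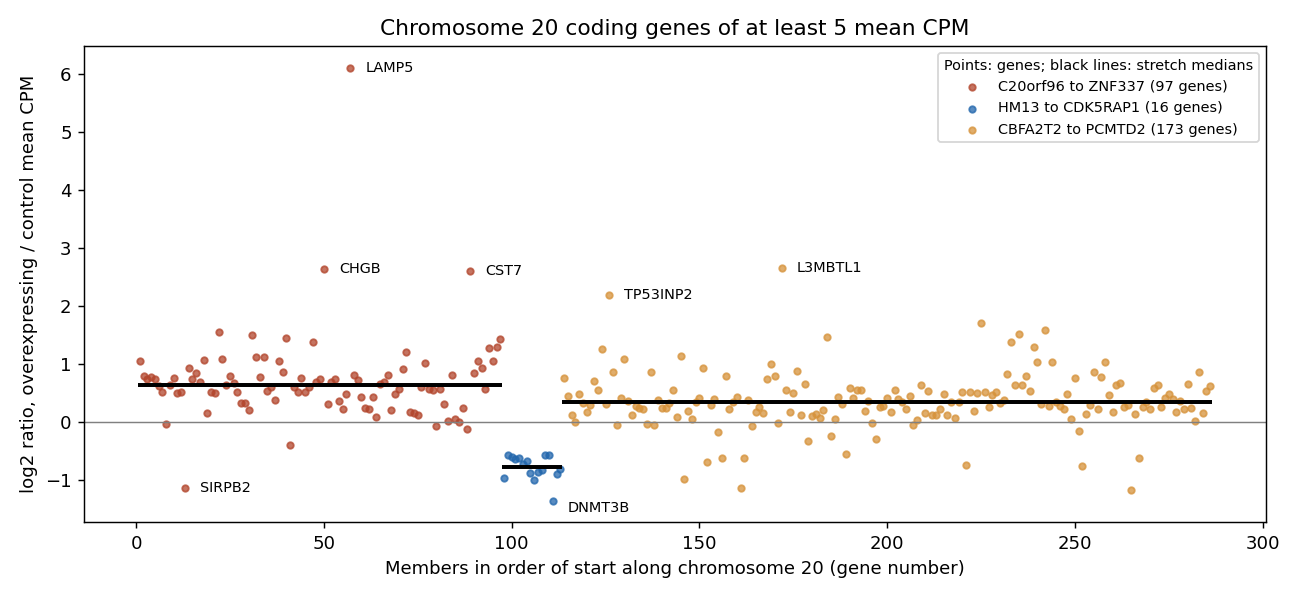
Log2 ratio of the mean CPM of the overexpressing libraries to that of the controls for each of the 286 members (points), in order of start along chromosome 20 (x axis, gene number), with the stretch medians as black lines. The medians are 0.64, -0.76 and 0.34 for the 97, 16 and 173 genes of the 3 stretches, and the 16 genes from HM13 to CDK5RAP1 all lie below 0.

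The lowered stretch ran from HM13 (ENSG00000101294, start 31514410) to CDK5RAP1 (ENSG00000101391, end 33401561) and held 16 members over 1.89 Mb. Its median log2 ratio was -0.76, which is 0.589 times the control level, and all 16 were called lower with every overexpressing library below every control. By library the median was -0.71, -0.79 and -0.84, and each control against the mean of the other controls gave 0.04, 0.02 and -0.07. All 48 values of a gene in an overexpressing library were below 0, from -1.48 to -0.36, while the controls ranged from -0.36 to 0.31. Of the 16 genes 15 lay within 0.5 of the stretch median on the log2 scale, against 76 of 97 and 138 of 173 in the stretches before and after. The stretches were located by small deviations from their medians, so this closeness is partly built in. The ratios ran from -1.35 for DNMT3B to -0.56 for NOL4L.

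Among its genes of cell survival and growth control, BCL2L1 encodes the anti-apoptotic protein Bcl-xL and measured 95.1, 100.3 and 95.9 CPM in the control libraries against 65.2, 65.4 and 62.0 CPM under overexpression. The groups were well separated, and the log2 fold change was -0.61 (SE 0.06). Exons of BCL2L1 lie over those of the antisense gene ABALON. ID1, a partner of basic helix-loop-helix factors that keeps them from binding DNA, measured 11.2, 13.5 and 14.1 CPM in the control libraries against 8.65, 7.06 and 10.0 CPM under overexpression. Its overexpressing libraries lay below the controls by the narrowest margin of the stretch, at -0.60 (SE 0.17), and the call was lost without control replicate 2, control replicate 3, overexpressing replicate 1 or overexpressing replicate 2. PDRG1, a small prefoldin-like protein, was at 80.3, 75.2 and 88.9 CPM in the control libraries against 52.3, 49.1 and 56.9 CPM under overexpression, a log2 fold change of -0.64 (SE 0.10).

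Chromatin and transcription were represented by 3 further genes. DNMT3B, which places new methyl groups on DNA, measured 98.3, 91.0 and 79.5 CPM in the control libraries against 36.0, 36.8 and 31.7 CPM under overexpression. This was the lowest ratio of the stretch in each of the 3 overexpressing libraries, with a log2 fold change of -1.37 (SE 0.09). ASXL1, a Polycomb-associated protein that is often mutated in myeloid neoplasms, measured 393, 389 and 359.9 CPM in the control libraries against 228, 229.8 and 188 CPM under overexpression. Overexpressing replicate 3 was the lowest, and the log2 fold change was -0.83 (SE 0.08). PLAGL2, a zinc-finger transcription factor, was at 270.0, 267 and 225 CPM in the control libraries against 144, 144 and 128 CPM under overexpression, a log2 fold change of -0.88 (SE 0.08) with no overlap of the groups.

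The spindle and motor genes held the most abundant RNAs of the stretch per length of exon. TPX2, the spindle assembly factor that activates Aurora A kinase, measured 991, 972 and 947 CPM in the control libraries against 642, 634 and 605 CPM under overexpression, and MAPRE1, which encodes the microtubule plus-end protein EB1, measured 644, 624 and 600.0 CPM in the control libraries against 335, 335 and 331 CPM under overexpression. Both were far apart between the groups, with log2 fold changes of -0.64 (SE 0.05) and -0.91 (SE 0.05). KIF3B, a kinesin-2 motor subunit, was at 92.7, 95.8 and 86.5 CPM in the control libraries against 56.2, 49.7 and 44.5 CPM under overexpression. Its log2 fold change was -0.88 (SE 0.09), and the 3 overexpressing libraries spread more than the controls.

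The remaining genes act in membranes, sugar transfer and RNA modification. HM13, the signal peptide peptidase of the endoplasmic reticulum, measured 441, 458 and 520.4 CPM in the control libraries against 244, 245 and 239.6 CPM under overexpression. It was near the lower end of the stretch at -0.97 (SE 0.08), and part of its count is uncertain because its exons are shared with or lie over MCTS2P and HM13-AS1. POFUT1, which adds O-fucose to Notch receptors, measured 345, 326 and 310.5 CPM in the control libraries against 168, 169 and 155 CPM under overexpression, a log2 fold change of -1.0 (SE 0.06). TM9SF4, a protein with several membrane spans, was at 292, 296 and 263 CPM in the control libraries against 191, 187 and 156 CPM under overexpression, a log2 fold change of -0.68 (SE 0.08). These 3 genes showed no overlap between groups. COMMD7, of the COMM domain family, was at 147, 143 and 179 CPM in the control libraries against 109.9, 99.5 and 106 CPM under overexpression, a log2 fold change of -0.58 (SE 0.11). NOL4L measured 88.1, 86.8 and 68.2 CPM in the control libraries against 60.1, 57.5 and 46.8 CPM under overexpression, a log2 fold change of -0.57 (SE 0.12), the smallest of the stretch. CDK5RAP1, a tRNA-modifying enzyme at the distal edge, measured 144, 143 and 155 CPM in the control libraries against 89.7, 80.3 and 83.1 CPM under overexpression, and its log2 fold change of -0.82 (SE 0.07) was as low as that of genes in the middle of the stretch.

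**Figure D2:**
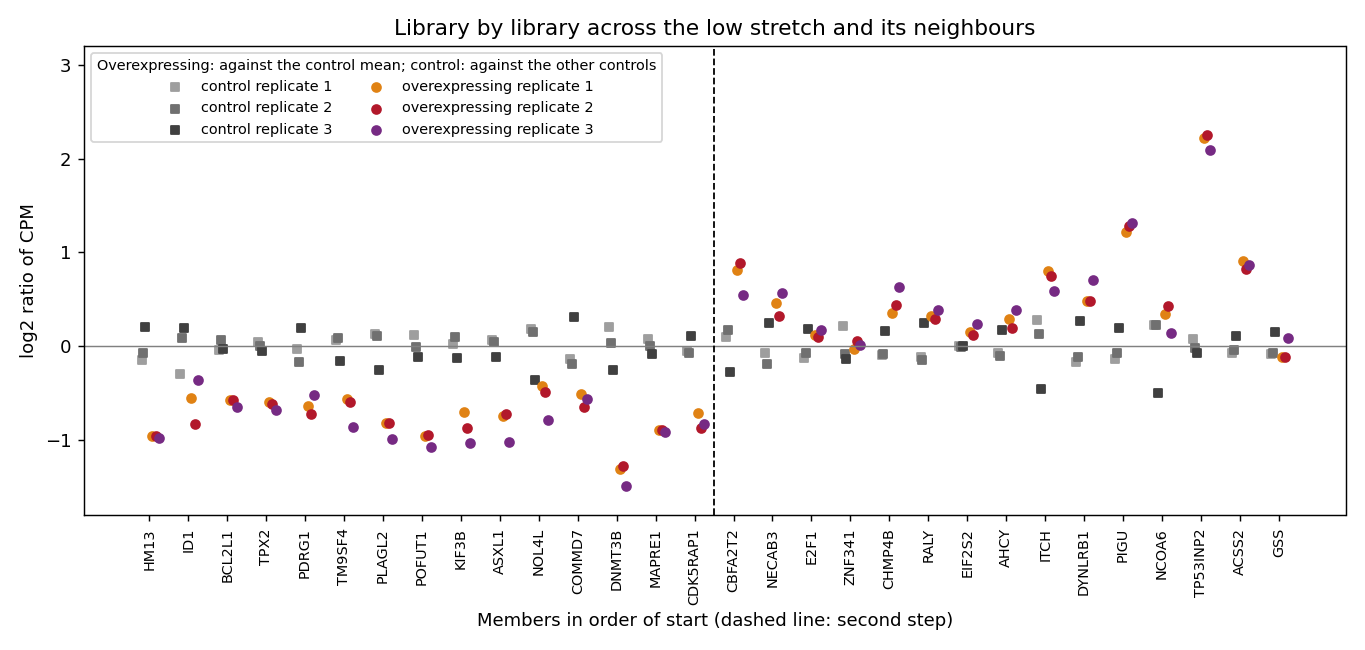
Log2 ratio of CPM (y axis) of each library for the members that start from 30 to 35 Mb except 1 not shown, in order of start (x axis). Circles are the 3 overexpressing libraries against the control mean and squares are each control against the mean of the other controls. The circles lie at or under -0.36 up to CDK5RAP1 and turn to 0.81, 0.88 and 0.55 at CBFA2T2, across the dashed line.

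The genes of the lowered stretch were abundant in the control cells. Their median control level was 42.3 CPM per kb of exon, against 10.1 and 8.65 in the stretches before and after and 8.10 on the other chromosomes. In the overexpressing cells it was 23.4 CPM per kb. Ranked among all comparable genes, the median member stood at percentile 90.6 in the controls and 81.1 in the overexpressing cells. Above the median level of those comparable genes were 16 of 16 in the controls and 12 of 16 in the overexpressing cells. TPX2 went from 269 to 174 CPM per kb and MAPRE1 from 237 to 127, while NOL4L, the least abundant per length, went from 8.58 to 5.80. The 16 genes took 18.9% ± 0.333 (SD, n = 3) of the members' summed CPM in the controls and 8.52% ± 0.297 (SD, n = 3) in the overexpressing libraries. The stretch before it went from 30.2% ± 0.137 to 40.7% ± 0.300, and the stretch after it took 50.9% ± 0.220 and 50.8% ± 0.0491 (SD, n = 3 each). Summed CPM went from 22694 to 29271.9 over all members and from 4298.3 to 2493.4 over the 16 genes. The shares therefore also reflect the larger total. The lowered stretch was also dense, at 8.48 members per Mb against 3.82 and 5.62.

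**Figure D3:**
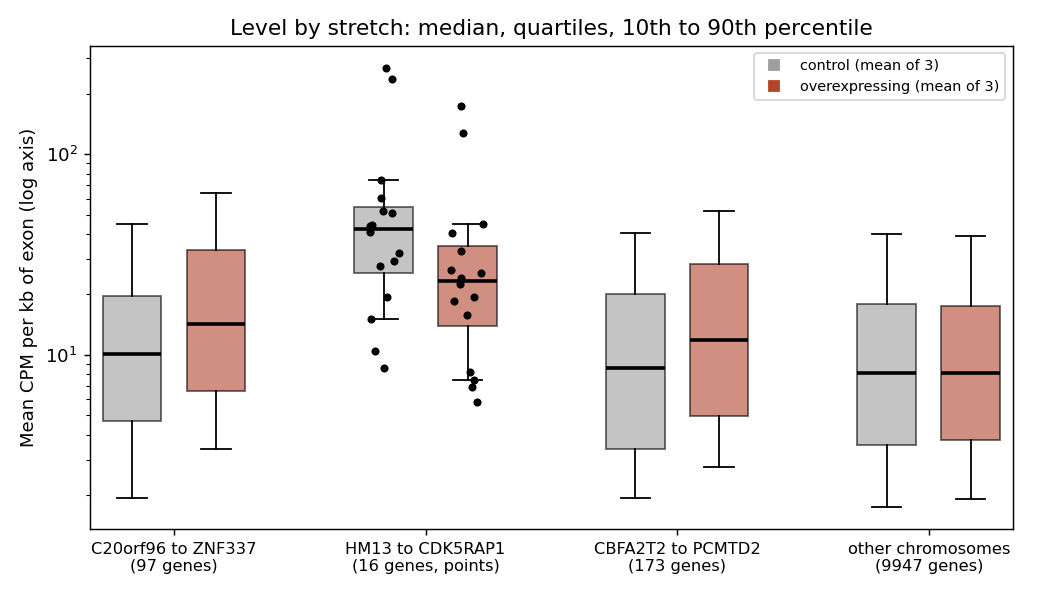
Mean level per kb of exon (y axis, log scale) in the control and overexpressing libraries (means of 3) for the members of each stretch and for comparable genes of the other chromosomes. Boxes show the median and quartiles, whiskers the 10th to 90th percentile, and points the 16 genes from HM13 to CDK5RAP1, whose median was 42.3 CPM per kb in the controls and 23.4 in the overexpressing cells.

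Not all coding genes of the interval entered the ratios. Of 36 coding genes with a row that start between HM13 and CDK5RAP1, 16 were members, 17 had a mean below 1 CPM and 9 of these were at 0 in every library, among them genes of the BPI fold cluster of airway and oral secretions. Of the 3 between 1 and 5 CPM, MYLK2, a myosin light chain kinase, measured 2.39, 2.79 and 2.23 CPM in the control libraries against 0.923, 0.942 and 1.55 CPM under overexpression, and it was called lower at -1.12 (SE 0.28). That call was lost without control replicate 1 or 2 or overexpressing replicate 1 or 2. CCM2L and an unnamed coding row were not called. A pair of non-coding rows of at least 1 CPM in the interval, TSPY26P and a long non-coding RNA, were called lower too, with a median ratio of -0.78, and both calls were lost without overexpressing replicate 2 or 3, among others.

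The proximal edge fell in a gap without members. ZNF337 (ENSG00000130684, end 25696841), a zinc-finger gene on the short arm side of the gap, was the last raised member and HM13 the next, 5.82 Mb further on, and the stretch medians differed by -1.40 across it. The gap was the widest between neighbouring members of the chromosome and includes the centromere. The last members before it were all higher: GINS1, a subunit of the replicative helicase complex, measured 61.5, 59.6 and 57.8 CPM in the control libraries against 120.3, 125 and 127 CPM under overexpression, NANP, a phosphatase of sialic acid synthesis, 19.9, 20 and 16.9 CPM in the control libraries against 48.0, 47.5 and 47.3 CPM under overexpression, and ZNF337 7.05, 8.52 and 7.24 CPM in the control libraries against 24.3, 19.6 and 20.8 CPM under overexpression. No overexpressing value overlapped a control for these 3 genes, and their log2 fold changes were 1.05 (SE 0.06), 1.32 (SE 0.08) and 1.49 (SE 0.13). Within the gap the pseudogene FRG1BP, which starts at 30377372, measured 1.51, 1.87 and 0.940 CPM in the control libraries against 7.74, 7.11 and 6.64 CPM under overexpression, a log2 fold change of 2.31 (SE 0.26). Near-identical FRG1 copies elsewhere make its count uncertain, and another copy in the gap, FRG1CP, was not called.

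The distal edge was narrow. CDK5RAP1 ended at 33401561 and CBFA2T2 (ENSG00000078699), a corepressor of the family of RUNX1T1, started at 33490075, 88.5 kb on, where the median turned by 1.11. CBFA2T2 measured 26.7, 27.7 and 22.3 CPM in the control libraries against 45.4, 47.7 and 37.7 CPM under overexpression, a log2 fold change of 0.76 (SE 0.11). Every overexpressing library was above every control, and its ratio of 0.76 was 0.41 above the median of its own stretch. The peroxisomal membrane gene PXMP4, further on and below the level for membership, measured 0.628, 1.21 and 0.975 CPM in the control libraries against 4.31, 5.74 and 5.88 CPM under overexpression, a log2 fold change of 2.49 (SE 0.29).

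The 16 members that follow the distal edge had a median log2 ratio of 0.44, and 11 of them were called higher and none lower. Of the 31 members that start from 30 to 35 Mb, the 16 up to CDK5RAP1 were lower, and of the 15 from CBFA2T2 10 were higher and 5 not called. PIGU, a subunit of the complex that attaches glycolipid anchors to proteins, measured 44.5, 45.8 and 51.7 CPM in the control libraries against 110.3, 115 and 119 CPM under overexpression, a log2 fold change of 1.27 (SE 0.09), with part of its exons shared with NCOA6. ACSS2, which makes acetyl-CoA from acetate in the cytosol and nucleus, measured 23.7, 24.1 and 25.8 CPM in the control libraries against 46.4, 43.9 and 45.0 CPM under overexpression, a log2 fold change of 0.87 (SE 0.08). ITCH, a ubiquitin ligase, measured 44.9, 42 and 31.5 CPM in the control libraries against 69.3, 66.7 and 59.8 CPM under overexpression, a log2 fold change of 0.72 (SE 0.12). All 3 had no overlap between groups. NECAB3, CHMP4B of the membrane-cutting ESCRT complex, the RNA-binding gene RALY, AHCY of the methionine cycle and the dynein chain gene DYNLRB1 were called higher at 0.29 to 0.56. Each of these 5 calls was lost without control replicate 1 or control replicate 2, and those of NECAB3, RALY and AHCY also without any one overexpressing replicate. The cell cycle factor E2F1 (log2 fold change 0.12 (SE 0.09)), ZNF341 (0.01 (SE 0.14)), EIF2S2 (0.16 (SE 0.06)), NCOA6 (0.31 (SE 0.14)) and the glutathione synthetase gene GSS (-0.05 (SE 0.09)) were not called. E2F1 was called higher without control replicate 3, at 0.21.

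The raised stretch from C20orf96 to ZNF337 held 97 members over 25.4 Mb with a median log2 ratio of 0.64, a 1.56-fold higher level. By library it was 0.63, 0.61 and 0.62. Of its genes 92 had a ratio above 0, 72 were called higher, 2 lower and 23 neither, and 84 had every overexpressing library above every control. When each library was left out in turn 63 of the 72 calls held throughout. Consecutive blocks of 20 members (17 in the last) had medians of 0.72, 0.74, 0.65, 0.52 and 0.82. PCNA, the sliding clamp of DNA replication, measured 396, 407 and 439 CPM in the control libraries against 609, 602 and 673 CPM under overexpression, a log2 fold change of 0.59 (SE 0.08). SNRPB, a core protein of the spliceosome, measured 318, 322 and 383 CPM in the control libraries against 509.7, 509.7 and 633 CPM under overexpression, a log2 fold change of 0.68 (SE 0.12). RNF24, a membrane-bound ring-finger gene, measured 98.8, 93.3 and 86.3 CPM in the control libraries against 272, 272 and 221 CPM under overexpression, a log2 fold change of 1.45 (SE 0.09). The groups did not overlap for any of the 3, and RNF24 was farther above 0 than the median of its stretch.

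Its last part was uneven. From RALGAPA2 to CST3 9 members had a median of 0.06, of which 3 were called higher and 6 neither, and from CST7 to ZNF337 9 members had a median of 1.05 and all 9 were called higher. The call of XRN2, 1 of the 3, was lost without control replicate 2, overexpressing replicate 1 or overexpressing replicate 2. These blocks became stretches of their own when the penalty for a new stretch was set to 1 log n in place of 2 log n. In the first block the thrombomodulin gene THBD had 15.3, 15.1 and 17.2 CPM in the control libraries against 16.1, 15.6 and 16.8 CPM under overexpression and was not called, at a log2 fold change of 0.02 (SE 0.10). Its neighbour CD93, a surface receptor of myeloid cells and endothelium, measured 514, 494 and 396 CPM in the control libraries against 883, 888 and 710.2 CPM under overexpression. CD93 was called higher at 0.81 (SE 0.11), and the difference between these adjacent members was not tested. In the second block ACSS1, the mitochondrial counterpart of ACSS2, measured 104, 101 and 114 CPM in the control libraries against 222, 223 and 215 CPM under overexpression, and ABHD12, a lysophospholipase, measured 51.3, 57.4 and 61.4 CPM in the control libraries against 134, 133 and 147 CPM under overexpression. Both had no overlap between groups, at 1.04 (SE 0.07) and 1.28 (SE 0.09).

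From CBFA2T2 to PCMTD2 the 173 members had a median log2 ratio of 0.34, a 1.27-fold higher level, and 0.35, 0.34 and 0.34 by library. A ratio above 0 was found for 151, and 91 were called higher, 9 lower and 73 neither. Of the 91 calls 56 held throughout when each library was left out in turn. The groups overlapped for 46 of the 173 members, against 11 of 97 in the stretch before the gap. Block medians lay between 0.24 and 0.52, without a turn below 0. GNAS, the stimulatory G protein gene, measured 492, 504 and 491 CPM in the control libraries against 774, 764 and 778 CPM under overexpression, a log2 fold change of 0.63 (SE 0.05). RPN2, of the complex that transfers sugars to new proteins, measured 503, 503 and 530.4 CPM in the control libraries against 674, 667 and 692 CPM under overexpression, a log2 fold change of 0.40 (SE 0.06). Both showed clear gaps between the groups. The 11 members from VAPB to SYCP2, GNAS among them, had a median of 0.83 and all 11 were called higher, and they formed a stretch at a penalty of 0.5 log n, a setting chosen after seeing the data. In that block STX16, a syntaxin of the Golgi, was at 1.39 (SE 0.08), NPEPL1, an aminopeptidase-like gene, at 1.52 (SE 0.08), and ATP5F1E, a subunit of the mitochondrial ATP synthase, at 1.31 (SE 0.18). STX16 and NPEPL1 share exons with the read-through gene STX16-NPEPL1, so their counts are uncertain. The calls of STX16-NPEPL1 and of PHACTR3 in this block were lost without at least 1 library, those without control replicate 2 or overexpressing replicate 2 among them.

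Departing genes were those whose ratio differed by more than 1 from the median of the 5 members before and 5 after, in the same direction in each overexpressing library, and 9 lay above and 8 below their neighbours. The highest was LAMP5, a lysosome-associated membrane protein known from neurons and plasmacytoid dendritic cells. It measured 4.04, 3.72 and 5.10 CPM in the control libraries against 337, 325 and 331 CPM under overexpression. The overexpressing libraries were close to one another and far above the controls, with a log2 fold change of 6.26 (SE 0.14) and a departure of 5.65. The antisense gene LAMP5-AS1 lies over its exons. L3MBTL1, a methyl-lysine reader that is imprinted, measured 3.39, 2.81 and 2.47 CPM in the control libraries against 21.6, 23.1 and 18.4 CPM under overexpression, a log2 fold change of 2.86 (SE 0.16), with exons shared with or lying over other genes. CST7, which encodes cystatin F, an inhibitor of lysosomal proteases in immune cells, measured 194, 195 and 224 CPM in the control libraries against 1200.2, 1215 and 1351 CPM under overexpression. It was called higher at 2.61 (SE 0.10). CST3, the cystatin C gene, is the member before it, although CST3 starts at 23626706 and CST7 at 24949230. CST3 measured 177, 171 and 221 CPM in the control libraries against 169, 157 and 199 CPM under overexpression and was not called.

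TP53INP2, a regulator of autophagy in the raised stretch after CDK5RAP1, measured 6.32, 6.01 and 5.86 CPM in the control libraries against 30.2, 30.7 and 27.4 CPM under overexpression, a log2 fold change of 2.27 (SE 0.09). FAM210B, a mitochondrial membrane gene, measured 9.60, 10.3 and 8.58 CPM in the control libraries against 33.1, 32.5 and 31.2 CPM under overexpression, a log2 fold change of 1.76 (SE 0.09). SYCP2, a meiotic synaptonemal complex gene, measured 3.66, 3.61 and 2.52 CPM in the control libraries against 10.7, 11.9 and 9.89 CPM under overexpression, a log2 fold change of 1.72 (SE 0.18). None of these genes had an overexpressing value within the control range. SLPI, the secreted inhibitor of leukocyte elastase, measured 4.29, 3.52 and 3.88 CPM in the control libraries against 13.2, 9.66 and 12.4 CPM under overexpression, and its log2 fold change was 1.58 (SE 0.17) with overexpressing replicate 2 the lowest of its group. ZNF337 and CBFA2T2 met the rule with 5 of the 10 neighbours of each across an edge in the lowered stretch, and their ratios were 0.81 and 0.41 above the medians of their own stretches.

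Below their neighbours, SIRPB2, a member of the signal-regulatory protein family, measured 15.6, 17.2 and 15.4 CPM in the control libraries against 7.25, 7.82 and 6.03 CPM under overexpression, a log2 fold change of -1.20 (SE 0.13). It shares exons with NSFL1C, so part of its count is uncertain. NFATC2, a transcription factor of activated lymphocytes, measured 42.2, 41.4 and 31.5 CPM in the control libraries against 22.1, 25.0 and 21.2 CPM under overexpression, a log2 fold change of -0.76 (SE 0.12). SAMHD1, the enzyme that breaks down deoxynucleotides, measured 19.0, 17.0 and 17.6 CPM in the control libraries against 11.1, 11.5 and 10.3 CPM under overexpression, a log2 fold change of -0.71 (SE 0.10). All 3 were called lower with no overlap inside stretches whose median was above 0. LAMA5, a laminin chain, measured 23.7, 22.5 and 14.9 CPM in the control libraries against 13, 9.37 and 13.3 CPM under overexpression, and was called lower at -0.78 (SE 0.20), a call lost without control replicate 1, control replicate 2 or overexpressing replicate 2. SMOX, the spermine oxidase gene, measured 19.2, 16.3 and 17.6 CPM in the control libraries against 14.3, 13.2 and 12.3 CPM under overexpression, and was called lower at -0.42 (SE 0.11), a call lost without control replicate 1, control replicate 3, overexpressing replicate 2 or overexpressing replicate 3. Its overexpressing libraries were all below the controls, by a small margin.

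The other 3 genes below their neighbours were not called and differed within the overexpressing group. TGM2, the tissue transglutaminase, measured 18.5, 18.1 and 16.9 CPM in the control libraries against 17.3, 2.19 and 4.11 CPM under overexpression. MYL9, a myosin light chain, measured 7.38, 6.92 and 7.08 CPM in the control libraries against 7.80, 1.32 and 1.05 CPM under overexpression. EEF1A2, a translation elongation factor with a near-identical paralogue, measured 7.90, 7.13 and 7.17 CPM in the control libraries against 6.17, 1.53 and 1.30 CPM under overexpression. In each, overexpressing replicate 1 was near the controls and replicates 2 and 3 were low. Without overexpressing replicate 1 all 3 were called lower, with log2 fold changes of -2.51 for TGM2, -2.60 for MYL9 and -2.39 for EEF1A2, and DESeq2 called EEF1A2 lower with all libraries (-1.33). They were the only members of the 286 with at least a 2-fold difference, in 1 direction, between overexpressing replicate 1 and both others, and none was in the lowered stretch. The libraries that were low here were those in which the B cell markers were high, and the part of that in these values was not tested. CHGB, a granule protein of endocrine cells, rested on 1 library, with 3.27, 0.0711 and 0.174 CPM in the control libraries against 0.543, 28.9 and 0.485 CPM under overexpression, and was not called.

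**Figure D4:**
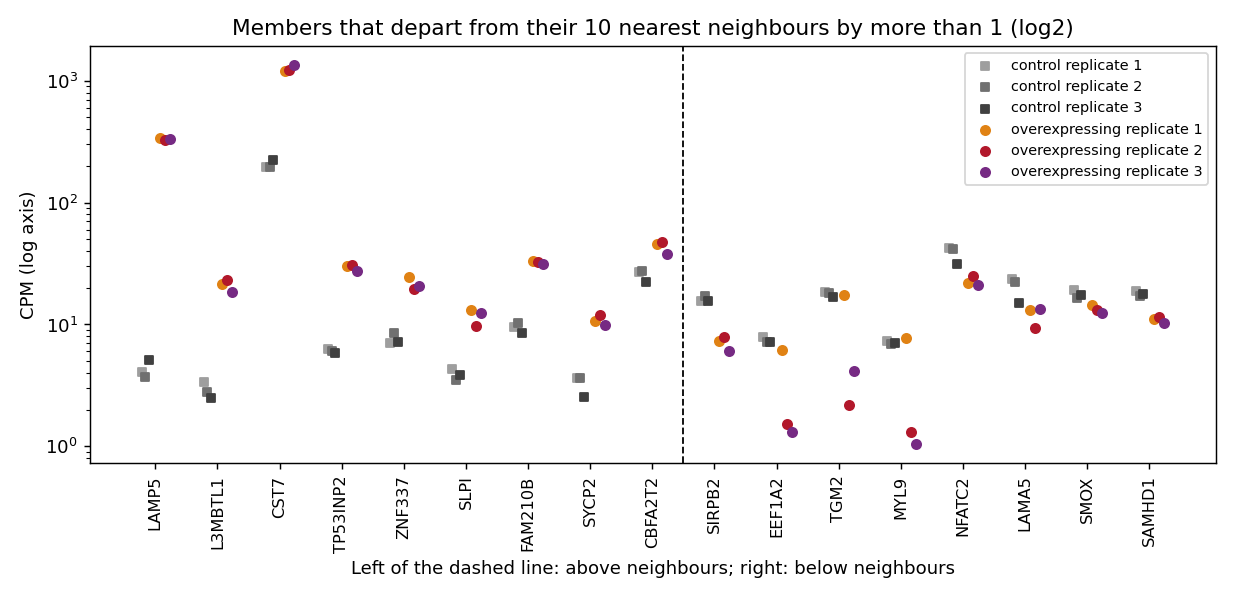
Level (y axis, CPM, log scale) of the 17 members that depart from their 10 nearest neighbours, one point per library, squares for the controls and circles for the overexpressing libraries. Left of the dashed line are the 9 genes above their neighbours, with LAMP5 going from at most 5.10 CPM to at least 325 CPM, and right of it the 8 below, among which EEF1A2, TGM2 and MYL9 have overexpressing replicate 1 apart from the others.

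Outside the lowered stretch 11 members were called lower. Besides the 5 departing genes named above they were SRC, the founding Src-family kinase, BPI, which binds bacterial lipopolysaccharide, ADA, the adenosine deaminase gene, UBE2C, which marks mitotic proteins for destruction, the coregulator gene NCOA5 and the helicase gene HELZ2, named because they complete the count. UBE2C measured 50.0, 48.5 and 53.2 CPM in the control libraries against 36.1, 30.8 and 36.7 CPM under overexpression, a log2 fold change of -0.56 (SE 0.09), and HELZ2 measured 25.8, 27.3 and 23.6 CPM in the control libraries against 18.0, 18.0 and 13.5 CPM under overexpression, a log2 fold change of -0.64 (SE 0.12). Neither overlapped between groups, and both kept their calls when any one library was left out. The calls of SRC, BPI, ADA and NCOA5 did not, and each of the 4 was lost without overexpressing replicate 2. BPI and SRC were also lost without control replicate 1, NCOA5 without control replicate 1 or either of the other overexpressing replicates, ADA without overexpressing replicate 1, and SRC without control replicate 2, control replicate 3 or overexpressing replicate 3.

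Lists of members by function were read against the median of 0.41 over all members, of which 57.0% were called higher and 9.44% lower. The counts in these lists were not tested against those shares. Of 18 members of DNA replication and mitosis 9 were higher, 3 lower and 6 neither, with a median of 0.26. The 3 lower ones were TPX2 and MAPRE1 of the lowered stretch and UBE2C, while PCNA, GINS1 and AURKA, the Aurora A kinase that TPX2 activates (82.4, 83.2 and 77.2 CPM in the control libraries against 119, 120.4 and 109.9 CPM under overexpression), were higher. Of 22 genes of transcription and chromatin 9 were higher, 5 lower and 8 neither, with a median of 0.29, and 4 of the 5 lower ones (ID1, PLAGL2, ASXL1 and DNMT3B) were in the lowered stretch. CEBPB, a factor of granulocyte and macrophage differentiation, had 76.3, 75.7 and 86.9 CPM in the control libraries against 88.1, 86.4 and 86.0 CPM under overexpression and was not called.

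Of 18 metabolic genes 14 were higher and none lower (median 0.43), and of 10 genes of the proteasome and ubiquitin 7 were higher and none lower (median 0.61). Splicing and RNA processing had 8 of 13 higher (median 0.32), and ribosome and translation 5 of 12 (median 0.25), with none lower in either. None of these 4 lists had a member between HM13 and CDK5RAP1. In the stretches before and after, 74.2% and 52.6% of all members were called higher and 2.06% and 5.20% lower. Kinases, phosphatases and signalling had 8 of 13 higher and 3 lower (median 0.40), with SRC and PDRG1 among the latter. Vesicle trafficking had 6 of 13 higher and 2 lower, TM9SF4 and COMMD7 (median 0.29). Of 9 immune surface and lysosomal genes 4 were higher and 2, ADA and SAMHD1, lower (median 0.37). Among these CTSA, a lysosomal carboxypeptidase, measured 273, 279 and 301 CPM in the control libraries against 426, 406 and 420.4 CPM under overexpression, and CTSZ, a cathepsin, 184, 174 and 209 CPM in the control libraries against 281, 262 and 285 CPM under overexpression. Both were higher with no overlap, at 0.55 (SE 0.07) and 0.54 (SE 0.09).

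Small gene families of the chromosome gave few members. Of the signal-regulatory proteins, receptors on myeloid cells, SIRPA measured 162, 159 and 157 CPM in the control libraries against 275, 275 and 255 CPM under overexpression and SIRPB1 23.9, 23.9 and 22.8 CPM in the control libraries against 45.9, 48.3 and 42 CPM under overexpression. Both were higher, at 0.74 (SE 0.06) and 0.94 (SE 0.08), while SIRPB2 of the same family cluster was lower. Of 11 cystatins 2 were members, of 16 protease inhibitors with a WAP domain 1, SLPI, and of 10 BPI fold genes 1, BPI. The imprinted members GNAS, BLCAP and L3MBTL1 were all higher, with a median of 0.79. All 3 lie in the raised stretch from CBFA2T2, where 52.6% of members were called higher. Of 4 survival genes TP53INP2 and TP53RK were higher, BCL2L1 lower and DIDO1 not called, and the call of TP53RK was lost without overexpressing replicate 2.

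The same segmentation was run on every chromosome as a description. It gave 39 stretches over chromosomes 1 to 22 and X, and the stretch from HM13 to CDK5RAP1 had the lowest median of these. Next were the stretch from NIPA2 to SQOR on chromosome 15 (115 genes, median -0.46) and one from BAG2 to PDCD2 on chromosome 6 (227 genes, median -0.35). The longest run of consecutive members below -0.5 was 16 on chromosome 20, 9 on chromosome 15 (KNL1 to CHAC1), 8 on chromosome 6 and at most 3 on the others. By chromosome median, chromosome 20 stood after X (0.49) and before chromosome 15 (0.11). Taking 1 value per chromosome, the largest difference between adjacent stretches was 2.06 on chromosome 6, where 9 genes from ZNF76 to SRPK1 had a median of 2.07, 1.40 on chromosome 20 and 0.84 on chromosome 15. The segmentation found the same edges on chromosome 20 in each overexpressing library alone against the control mean. These runs share that control mean, so they are not independent. It found no edge in any control against the other controls.

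**Figure D5:**
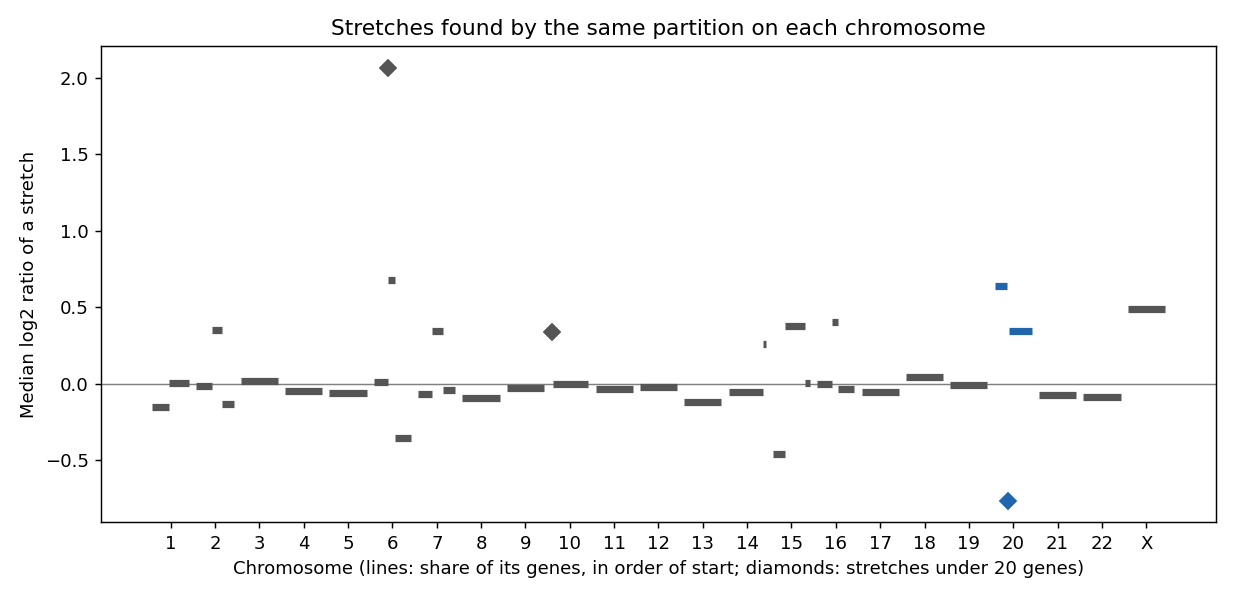
Median log2 ratio (y axis) of each stretch found by the same segmentation on chromosomes 1 to 22 and X (x axis). Lines span the share of a chromosome's genes and diamonds mark stretches under 20 genes. Chromosome 20 holds the lowest of the 39 stretches, at -0.76, between raised stretches at 0.64 and 0.34.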

How the data were processed

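Poly(A) RNA was read in pairs from dUTP strand-marked libraries, per the labels' protocols, and the authors made 1 table of estimated counts per gene for the 6 libraries. The deposited values were whole, so rounding changed nothing, but an excess of genes at 4 counts (1496 in control replicate 1, against 777 at 3 and 505 at 5) leaves it unclear whether 1 count is 1 fragment. The submitters' processing notes name FastQC, fastp, STAR, Subread's featureCounts and GRCh38 (hg38). Tool versions, the annotation release, the counting unit and the strand setting are not given in the sources used here. Genes were placed with GENCODE release 29.

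Genes kept by filterByExpr (19485) were scaled by TMM and tested with edgeR 4.0.16 (glmQLFit, glmQLFTest, two-sided, Benjamini-Hochberg threshold 0.05, R 4.3.3). SE is the fold change divided by the root of F. Log2 ratios used CPM by column totals and a pseudocount of 0.5 CPM, which understates the change of low genes. Stretches minimised absolute deviations from stretch medians with a penalty of 2 log n and at least 8 genes each. The test and the segmentation were each run on simulated data with known answers, whose outcomes are not given here. In the simulated counts for the test the changed genes were drawn at random, unlike neighbouring genes that shift together. With 3 libraries per group an exact permutation test of 1 value cannot go below 0.10, so none was used. Named genes were the 3 members beside each step, departing genes, the 3 most abundant members of each list, the 5 most abundant members and those from 30 to 35 Mb. Other genes were named after their values were seen. Results for 1 gene meeting this rule, for 1 gene below the level for membership, and the place of the second edge at a level of 1 CPM are not reported here. The members and lists were chosen with earlier results of these data known. Alternatives tried were other scaling factors (RLE, upper-quartile, none), no filter, DESeq2 1.42.0, a replicate block, counts divided by 4, other CPM levels, pseudocounts and penalties, and each library left out.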

Additional observations from a re-analysis of the deposited data

How the results depend on the processing

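The 3 stretches and both edges were found in every overexpressing library alone against the shared control mean, and with each library left out. They were also found with a penalty of 4 log n, at least 5 or 15 genes in a stretch, squared deviations, TMM factors, a level of 20 CPM or a pseudocount of 2 CPM. Both edges were also found with penalties of 1 log n, which gave 5 stretches, and 0.5 log n, chosen after seeing the data, which gave 7. A level of 1 CPM gave 3 stretches with the same first edge, but the second edge moved. The median over all members was 0.41, and 0.38 with RLE factors, 0.40 from 1 CPM, 0.39 from 20 CPM, 0.39 with a pseudocount of 2 CPM and 0.40 to 0.42 with each library left out. The stretch before HM13 (0.64) had 0.61 with RLE factors, 0.63 from 1 CPM, 0.60 with a pseudocount of 2 CPM and 0.60 to 0.64 with each library left out. The stretch from CBFA2T2 (0.34) had 0.33 with TMM and 0.32 with RLE factors, 0.34 from 20 CPM, 0.35 and 0.34 with pseudocounts of 0.1 and 2 CPM, and 0.32 to 0.37 with each library left out. The stretch from HM13 to CDK5RAP1 ranged from -0.80 (from 20 CPM) to -0.72 (from 1 CPM), and 15 or 16 of its 16 genes were called lower under all 13 alternatives of the test, ID1 being the exception. With each library left out, 1783 to 2917 tested genes were called higher (1783 without overexpressing replicate 2) and 1137 to 2226 lower (1137 without overexpressing replicate 2, 1227 without control replicate 1, 1287 without control replicate 2), with fewer libraries in each of these fits. Same-numbered libraries did not deviate together (correlations of -0.03, 0.05 and 0.07), so the numbers were not taken as pairs, and with the replicate block 193 members were higher and 28 lower, against 163 and 27. Of 59 called named genes 48 kept the call under every alternative of the test. Of 16 named genes that were not called 10 were called under at least 1 alternative: EEF1A2, MYL9 and TGM2 without overexpressing replicate 1, E2F1, NOP56 and PSMA7 without control replicate 3, EEF1A2 and SNX5 with DESeq2, SNX5 also with column totals and with counts divided by 4, and DIDO1, EEF1A2, EIF2S2, NCOA6, NOP56, PSMA7 and SNX5 with the replicate block. Another 5 changed sign. With each library left out ADNP ranged from -0.0023 to 0.1231, CST3 from -0.2318 to 0.0249, GSS from -0.1292 to 0.0196, RAB5IF from -0.0062 to 0.1101 and ZNF341 from -0.0472 to 0.0788. ZNF341 was also at -0.0085 with RLE factors, -0.0080 with upper-quartile factors and -0.0086 with DESeq2. The cause was not tested. With counts divided by 4 and rounded up, 173 members were called higher and 27 lower and no call of a named gene was lost. Dividing adds none of the sampling noise of a shallower library, so it cannot show whether calls hold at lower depth.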

Other observations

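For rows of chromosome 20 that were not members, the medians had the same signs by stretch, with few rows in the lowered stretch. Coding genes of 1 to 5 mean CPM had a median log2 ratio of 0.42 up to ZNF337 (14 genes, 6 called higher and 0 lower). It was -0.49 between HM13 and CDK5RAP1 (3 genes, 1 called lower) and 0.29 from CBFA2T2 on (32 genes, 7 called higher and 3 lower). Non-coding rows and pseudogenes of at least 1 mean CPM had medians of 0.25 (8 rows, 3 called higher), -0.78 (2 rows, both called lower) and 0.20 (22 rows, 5 called higher and 1 lower) within the same bounds. The pseudogenes FRG1BP (ratio 1.98, called higher) and FRG1CP (ratio -0.18, not called) lie in the gap between ZNF337 and HM13 and were left out. Between HM13 and CDK5RAP1 1 of the 3 coding rows, CCM2L, had a ratio above 0. The lower calls there, of MYLK2, TSPY26P and a long non-coding RNA, were lost in 4, 3 and 5 of the 6 fits with 1 library left out. Over all tested genes 14.2% were called higher and 9.94% lower.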
